A study of Mus musculus with 4 samples.

Results

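Tight junction and epithelial polarity genes were followed across 4 Illumina bead arrays of mouse RNA. The genes were taken by symbol from the platform's probe table: all numbered claudins, the zonula occludens scaffolds Tjp1 and Tjp3, and a set of named junction, polarity, sorting and matriptase genes. The rule found 39 genes with 54 probes, of 15967 named genes and 24613 probes on the array. Cgn, which the rule also names, was not analysed here. T23 and T1525 are prostate tumor cell lines from C57Bl/6 mice carrying the TRAMP transgene, which places SV40 tumor antigens under the probasin promoter in prostate epithelium. Both lines are given an age of 30 weeks and were hybridised to 1 array each. The comparison tissue was normal prostate of WT C57Bl/6 mice at 18 weeks on 2 arrays, called normal 1 and normal 2. The labels name neither separate mice behind the normal arrays nor the number of cultures of a line. The p-values therefore cover no more than the spread among these arrays, which may be technical. Tumor origin, growth in culture and age all changed together between lines and tissue and cannot be told apart.

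Tight junctions seal the space between neighbouring epithelial cells near their apical side. Claudins form the seal and its ion pores, occludin and the junctional adhesion molecules sit beside them, and zonula occludens scaffolds tie them to the actin cytoskeleton. The Crumbs and Par complexes mark the apical domain and the Scribble group, with the Lgl proteins, marks the basolateral domain, while Rab25 and the adaptor subunit Ap1m2 carry cargo to those surfaces. Matriptase, encoded by St14, is an epithelial membrane protease held in check by the inhibitors Spint1 and Spint2.

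Values are log2 of the deposited normalized intensity, and a value at or below 6.70 was taken as background. On each array 50.7% to 51.0% of all probes were above that value. Across the 15748 probes above it on at least 1 array, the normal pair correlated with r = 0.963, the lines with r = 0.837, and a line with a normal array with r between 0.719 and 0.753, over probes that are not independent replicates. Among markers of other cells, summed intensity in T23, T1525, normal 1 and normal 2 was 769, 822, 6222 and 15068 for 8 endothelial genes, and 368, 581, 18402 and 43640 for 5 leukocyte genes. For 6 smooth muscle genes it was 27736, 417, 159598 and 149417, and for 3 seminal vesicle genes it was 477, 231, 153230 and 156894. For 7 fibroblast genes it was 68160, 11638, 27097 and 56282, with 6, 2, 7 and 7 of them above background. In T1525 these 2 were Vim, at a log2 intensity of 13.43, and Pdgfra, at 7.94. In T23, Lum was at background, and Dcn read 13.34 against 14.23 in normal 1 and 15.16 in normal 2. Col1a1, Col1a2, Col3a1, Pdgfra and Vim read above both normal arrays in T23, with Vim the highest at 15.11. The 2 mesothelial genes measured summed to 3399 in T23 and 335 in T1525 against 468 in normal 1 and 1507 in normal 2. They went opposite ways in T23. On the log2 scale Msln read 11.70 in T23 against 7.14 in normal 1 and 7.42 in normal 2. Upk3b was at background in T23 (6.06) against 8.35 in normal 1 and 10.38 in normal 2. The 1 measured nerve and glia gene was at background in both lines. The part of these other cells in the results was not tested. In bulk RNA, fewer cells of a type and less RNA per cell cannot be told apart.

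Of the 39 genes, 31 lay above background on at least 1 array. The other 8 (Cldn8, Cldn13, Cldn14, Cldn15, Cldn16, Cxadr, Pard6b and Prkci) were at background on all 4, with log2 intensities of 5.83 to 6.69 over their 10 probes, and gave no level. Among the 31, the median log2 intensity was 6.40 in T23 and 9.14 in T1525 against 9.83 in normal 1 and 9.37 in normal 2, while the median over all 10894 genes was 8.40, 8.39, 8.51 and 8.53. Only T23 stood low. In T23, 11 of the 31 were above background, against 79.9% of all genes. The other arrays had 25 in T1525, 27 in normal 1 and 25 in normal 2, against 79.6%, 83.1% and 83.7% of all genes.

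**Figure D1:**
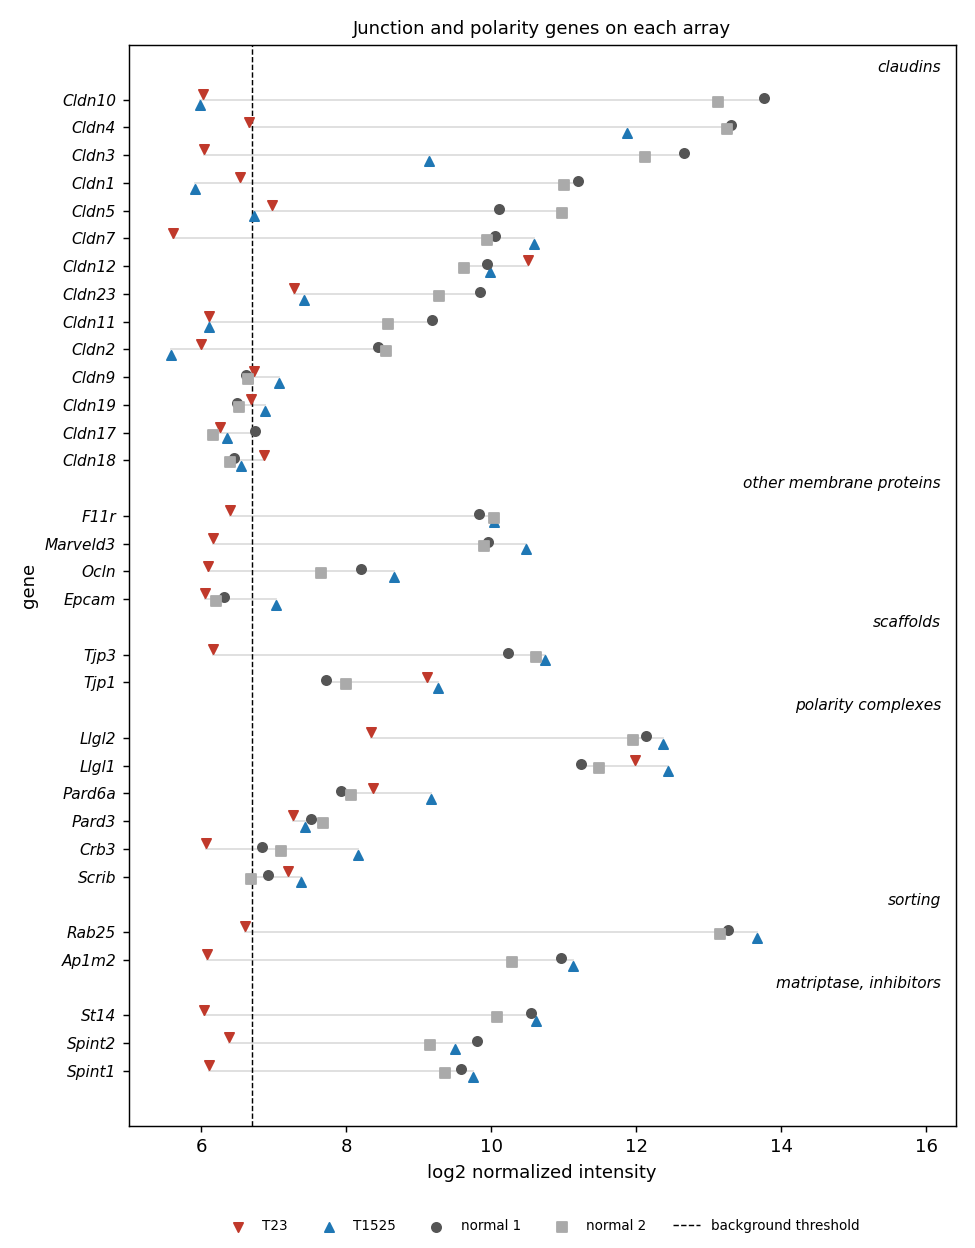
Log2 normalized intensity (x axis) of the 31 junction and polarity genes above background on at least 1 array (rows, grouped by role), with 1 point per array and the background threshold as a dashed line. Points are offset vertically so that they can be seen. T23 lies at the left for most genes, at or below the threshold for 20 of the 31, while T1525 lies near the normal arrays for most genes outside the claudins.

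The labels of the cells were checked on 3 epithelial markers, Epcam, Rab25 and Cldn3. Epcam, an epithelial adhesion protein that binds claudin-7, read 6.05 in T23 and 7.03 in T1525 against 6.31 in normal 1 and 6.21 in normal 2. It was thus at background in normal prostate, against what its name as an epithelial marker calls for, and its single probe separated no groups (adjusted p = 0.507 for T23 and 0.0737 for T1525, limma). Rab25 was high in both normal arrays and in T1525. Cldn3 was high in both normal arrays (12.65 and 12.12) and lower in T1525 (9.14). Neither was above background in T23. All 3 markers are also members of the gene set, so they are no independent check of the labels.

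T23 differed from normal prostate in most of these genes. By limma with Benjamini-Hochberg adjustment over all probes, 19 of the 31 were lower in T23 than in the normal arrays, where 14.9% of all genes were called lower, and 1 was higher, where 15.6% were. The median difference of T23 from normal was -2.77 over the 31 genes and 0.08 over all genes, or -2.28 and 0.02 with background values raised to the threshold. In T1525, 8 were lower (14.8% of all genes) and 4 higher (16.5%), with a median difference of 0.31 against 0.09. All 8 genes lower in T1525 were claudins, and all 8 were also lower in T23. Over all genes, 975 of the 1616 called lower in T1525 were also called lower in T23. Taken from T23, 8 of its 19 lower members were also lower in T1525, where 975 of 1625 over all genes were. Both comparisons share the normal arrays. Each line had 1 array and was assumed to vary like the normal pair. When background values were raised to the threshold before the fit, 4 calls were left in T23 (Rab25, Cldn4, Marveld3 and Cldn7) and 2 in T1525 (Cldn1 and Cldn4).

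**Figure D2:**
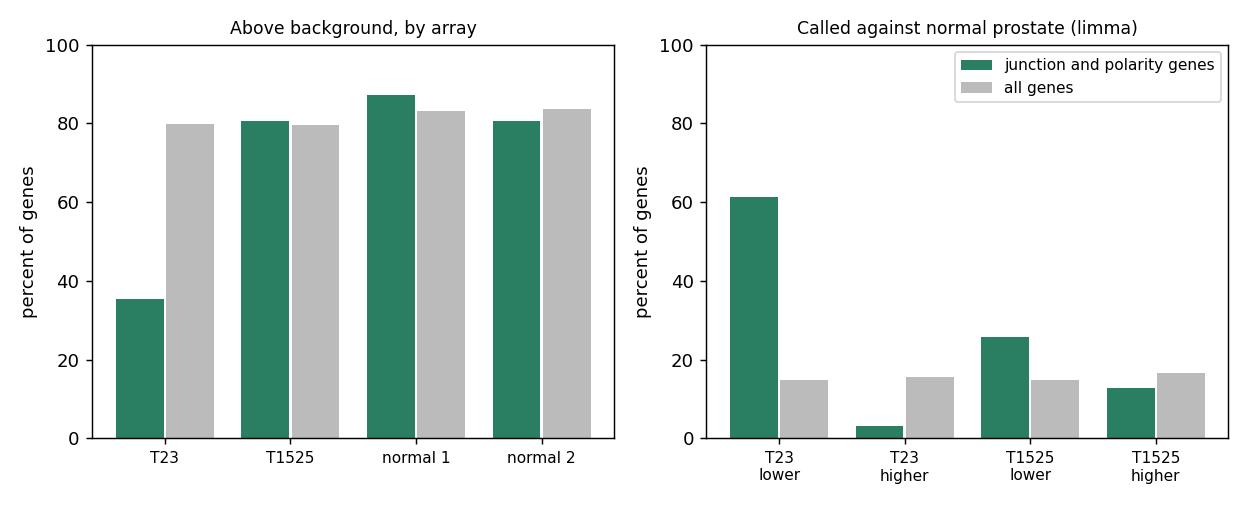
Percent of genes (y axis) above background on each array (left) and percent called lower or higher than normal prostate in each line by limma (right), for the 31 junction and polarity genes and for all 10894 genes. T23 has 35.5% of the junction and polarity genes above background and 61.3% of them called lower, while its bars for all genes are 79.9% and 14.9%.

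With the lines taken as 1 class against normal prostate, 6 of the 31 genes were lower, where 6.09% of all genes were, and 1 was higher, where 5.31% were. The median class difference was -1.61, against 0.11 over all genes. The 6 lower genes were Cldn1, Cldn2, Cldn5, Cldn10, Cldn11 and Cldn23 and the higher one was Tjp1. Cldn1, Cldn2, Cldn10 and Cldn11 entered the fit only through the normal arrays, where they were above background, which can favour a lower call. Both lines read below both normal arrays for 9 of the 31 genes, as for 28.5% of all genes, and above both for 8, as for 36.3%. Without normal 1 or without normal 2 no gene at all was called in the class comparison. Without T1525 or without T23 the class comparison is the comparison of the other line alone with normal prostate, given above, and is no further check.

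The 2 lines also differed from each other. With background values raised to the threshold, 14 of the 31 genes read at least 2-fold lower in T23 than in T1525, where 10.3% of all genes did, and 0 read at least 2-fold higher, where 9.92% did. Single arrays allow no test of this difference. By detection, 13 genes were above background in T1525 and both normal arrays but not in T23, a pattern of 4.91% of all genes. They were Ap1m2, Cldn3, Cldn4, Cldn7, Crb3, F11r, Marveld3, Ocln, Rab25, Spint1, Spint2, St14 and Tjp3. The opposite pattern, background in T1525 alone, held for 0 of them and 4.78% of all genes. Cldn1, Cldn2, Cldn10 and Cldn11 were above background in the normal arrays only (6.82% of all genes), and 8 genes were above it on all 4 arrays (62.7%).

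The promoters of these genes were read to see what else the detection groups shared. RefSeq windows of 300 bases around the start of transcription (build GRCm38.p6) were at hand for 30 of the 39 genes. They were searched on both strands for the E-box CAGGTG, which reads CACCTG on the other strand and is the core sequence bound by zinc-finger factors of the Zeb and Snail families. The next lines show the windows of the sorting genes Rab25 and Ap1m2 and of the claudins Cldn4 and Cldn7, which were at background in T23 alone, and of Cldn1, which was at background in both lines. They run 5′ to 3′ along the gene's strand with the E-boxes in capitals.
Rab25, chr3:88548230-88548529, minus strand: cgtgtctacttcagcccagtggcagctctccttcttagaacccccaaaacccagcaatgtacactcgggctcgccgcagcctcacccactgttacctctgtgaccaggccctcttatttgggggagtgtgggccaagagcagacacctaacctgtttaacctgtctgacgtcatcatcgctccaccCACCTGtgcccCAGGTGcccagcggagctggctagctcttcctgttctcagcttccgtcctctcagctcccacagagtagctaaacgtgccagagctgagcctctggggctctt
Ap1m2, chr9:21312284-21312583, minus strand: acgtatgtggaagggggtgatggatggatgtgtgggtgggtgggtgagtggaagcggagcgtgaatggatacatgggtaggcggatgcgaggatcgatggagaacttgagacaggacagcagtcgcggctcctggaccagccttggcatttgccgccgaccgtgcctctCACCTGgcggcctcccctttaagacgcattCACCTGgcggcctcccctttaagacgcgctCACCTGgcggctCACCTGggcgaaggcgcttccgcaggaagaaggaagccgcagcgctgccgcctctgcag
Cldn4, chr5:134946885-134947184, minus strand: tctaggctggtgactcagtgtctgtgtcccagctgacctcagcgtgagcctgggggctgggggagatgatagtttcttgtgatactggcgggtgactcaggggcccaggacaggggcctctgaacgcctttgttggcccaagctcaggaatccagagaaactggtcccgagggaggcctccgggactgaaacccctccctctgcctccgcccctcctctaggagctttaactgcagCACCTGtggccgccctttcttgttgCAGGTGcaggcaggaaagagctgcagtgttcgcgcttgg
Cldn7, chr11:69965171-69965470, plus strand: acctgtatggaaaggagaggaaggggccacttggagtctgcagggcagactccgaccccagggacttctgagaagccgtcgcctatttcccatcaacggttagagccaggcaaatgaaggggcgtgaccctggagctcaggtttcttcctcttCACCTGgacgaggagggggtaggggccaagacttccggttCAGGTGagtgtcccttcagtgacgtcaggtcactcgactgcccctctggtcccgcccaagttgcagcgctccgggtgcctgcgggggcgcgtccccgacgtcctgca
Cldn1, chr16:26371790-26372089, minus strand: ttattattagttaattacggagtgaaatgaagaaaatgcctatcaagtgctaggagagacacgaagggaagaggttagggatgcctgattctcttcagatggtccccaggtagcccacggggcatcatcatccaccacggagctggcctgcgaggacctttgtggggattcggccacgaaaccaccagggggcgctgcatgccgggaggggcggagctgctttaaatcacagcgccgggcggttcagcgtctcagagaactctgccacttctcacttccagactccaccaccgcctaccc
The Rab25 window held 2 E-boxes, starting 64 and 53 bases before the start site. Ap1m2 held 4, at 81, 51, 21 and 9 bases before it. Cldn7 held 2 in the window shown, at 97 and 57 bases before the start site, and Cldn4 held 2, at 14 bases before and 11 bases after it. The Cldn1 window held none.

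Of the genes at background in T23 alone, 10 of the 11 with a window held an E-box, against 37.9% of the 409 genes of the whole array with that pattern. The 10 were Ap1m2, Cldn3, Cldn4, Cldn7, Crb3, F11r, Ocln, Rab25, Spint2 and Tjp3, and Spint1 was without one. Of Cldn1, Cldn2, Cldn10 and Cldn11, 0 of 4 held one, against 26.8% of 552 genes. Of the genes above background on all arrays, 2 of 6 did (Pard3 and Pard6a), against 20.3% of 5663. Of 4 members with other patterns 1 did (Epcam), against 24.2% of 1415 genes. Among genes at background in T1525 alone, 21.8% of 376 held one, with 0 members in that group. The E-box was in 20.2% of all 32851 windows and in 22.6% of all 27025 genes with a window. Over all members it was in 18 of 43 windows and in 15 of 30 genes. The grainyhead-type sequence AACCGGTT, also searched on both strands, was in 0.146% of all windows and in 0 of the members' 43. The groups come from the measured values and were described without a test, and a match of letters is not a site of binding.

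**Figure D3:**
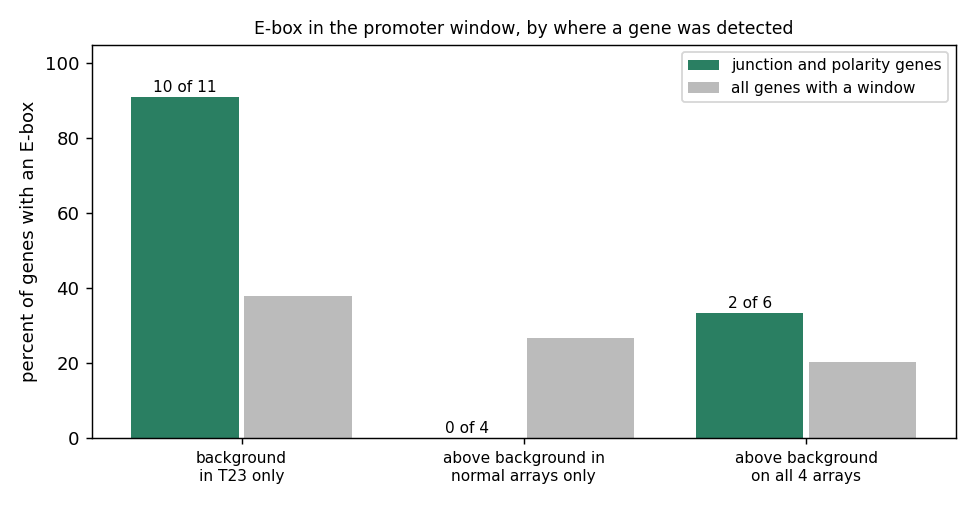
Percent of genes with at least 1 E-box CAGGTG on either strand in a RefSeq promoter window (y axis), for genes grouped by the arrays on which they lay above background (x axis). Green bars are the junction and polarity genes with a window, with their counts above, and grey bars are all genes with that pattern. The green bar is 10 of 11 where T23 alone was at background and 0 of 4 where only normal prostate was above it.

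Claudins made up 14 of the 31 genes. In T23, 9 of them were lower (14.9% of all genes) and 0 higher (15.6%) than in normal prostate. In T1525, 8 were lower (14.8% of all genes) and 0 higher (16.5%). Cldn10, which forms paracellular ion channels, had the highest claudin signal in normal 1 (13.77) and read 13.13 in normal 2, against 6.03 in T23 and 5.99 in T1525. It was lower by at least 108-fold in each line (adjusted p = 0.00541 for T23 and 0.00493 for T1525, limma). Its 5 probes split: 3 read between 10.82 and 13.77 in normal prostate and at background in both lines, 1 was at background on all arrays, and 1 read 6.67 to 7.28 and was not called in either line.

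Cldn1, a barrier claudin known for its need in skin, read 6.53 in T23 and 5.91 in T1525 against 11.20 in normal 1 and 11.003 in normal 2. The class difference was -4.88 (SE 0.31, adjusted p = 0.0119, limma), at least 21.2-fold. The lines (6.22 ± 0.44, SD, n = 2) and the normal arrays (11.10 ± 0.14, SD, n = 2) did not overlap. Cldn2, which forms a pore for small cations and water, read 6.00 and 5.58 in T23 and T1525 and 8.44 and 8.54 in normal 1 and normal 2. Both lines were at background and the drop was at least 3.48-fold (adjusted p = 0.0193, limma). Cldn11, known from myelin and from Sertoli cells, read 6.11 in T23 and 6.10 in T1525 against 9.18 in normal 1 and 8.58 in normal 2, at least 4.55-fold lower in the lines (adjusted p = 0.0224).

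Cldn5, the main claudin of endothelium, read 6.98 in T23 and 6.73 in T1525 against 10.10 in normal 1 and 10.98 in normal 2. It was 12.9-fold lower in the lines (adjusted p = 0.0211, limma), and the T1525 value lay just above background. Most endothelial markers moved with it: 2 of 8 were above background in each line and 7 of 8 in each normal array. Kdr went the other way in T1525, with 7.69 against 6.13 in normal 1 and 6.48 in normal 2, both at background. The part of these markers in the Cldn5 difference was not tested. Cldn23 stayed above background in the lines, with 7.28 in T23 and 7.41 in T1525 against 9.84 in normal 1 and 9.28 in normal 2, a 4.64-fold difference (adjusted p = 0.0305). On these 6 claudins both lines lay below both normal arrays.

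Cldn3 and Cldn4, neighbours on chromosome 5 in the protein-coding order of RefSeq and typical of simple epithelia, were graded. Cldn4 read 6.66 in T23 and 11.87 in T1525 against 13.30 in normal 1 and 13.25 in normal 2. It was at least 95.6-fold lower in T23 (adjusted p = 0.0048, limma) and 2.65-fold lower in T1525 (adjusted p = 0.0211). Cldn3 read 6.03, 9.14, 12.65 and 12.12 in the same order of arrays, at least 51.7-fold lower in T23 (adjusted p = 0.00546) and 9.53-fold lower in T1525 (adjusted p = 0.00993). Both genes therefore stood in the order T23, T1525, normal prostate, and the single arrays of T1525 and T23 read at least 36.0-fold apart for Cldn4 and 5.43-fold apart for Cldn3.

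Cldn7, which lies along the lateral membrane as well as in the tight junction, read 5.61 in T23 and 10.59 in T1525 against 10.06 in normal 1 and 9.94 in normal 2. T23 was lower by at least 9.88-fold (adjusted p = 0.00546, limma), whereas T1525 lay 0.59 above the normal mean with a 95% interval of -0.04 to 1.22. Cldn12 was the 1 claudin well above background on all arrays that was called in neither line, with 10.50 in T23 and 9.99 in T1525 against 9.94 in normal 1 and 9.62 in normal 2. Cldn9, Cldn17, Cldn18 and Cldn19 read between 6.16 and 7.07 throughout and were not called.

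**Figure D4:**
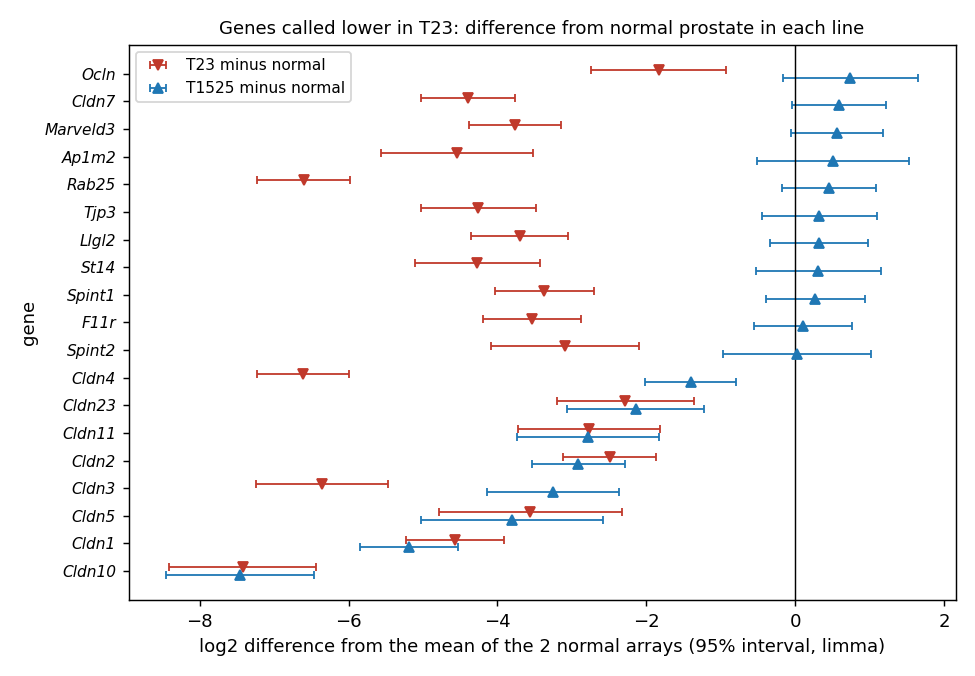
Log2 difference from the mean of the 2 normal arrays (x axis, points) with its 95% interval from limma (bars) for T23 and T1525, over the 19 genes called lower in T23 (rows). Points are offset vertically. T1525 lies left of 0 for 8 claudins, and its interval spans 0 for the other 11 genes, from Ocln at the top (0.74) to Spint2 (0.02), while T23 lies left of 0 for all 19 by the choice of genes.

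Beside the claudins, 4 membrane proteins of the junction were measured. F11r, the junctional adhesion molecule A, read 6.40 in T23 and 10.04 in T1525 against 9.83 in normal 1 and 10.04 in normal 2. It was at least 9.45-fold lower in T23 (adjusted p = 0.00641, limma), and T1525 differed from normal by 0.10 (95% interval -0.56 to 0.77). T1525 and normal 2 read the same to 2 decimals. Marveld3, a relative of occludin, read 6.16 in T23 and 10.48 in T1525 against 9.96 in normal 1 and 9.89 in normal 2, at least 9.39-fold lower in T23 (adjusted p = 0.00599). Its second probe, annotated to another transcript, read lower (6.34, 8.04, 7.64 and 7.31 in the same order) and was also lower in T23 (adjusted p = 0.045). Ocln, occludin itself, read 6.09 in T23 and 8.66 in T1525 against 8.20 in normal 1 and 7.64 in normal 2. It was lower in T23 by at least 2.34-fold (adjusted p = 0.0275). The fourth was Epcam, described with the markers.

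The 2 scaffolds went opposite ways in T23. Tjp3, the zonula occludens protein found mainly in epithelia, read 6.16 in T23 and 10.74 in T1525 against 10.22 in normal 1 and 10.61 in normal 2. It was at least 13.2-fold lower in T23 (adjusted p = 0.00629, limma) and differed from normal by 0.32 in T1525 (95% interval -0.45 to 1.09). Its second probe was dimmer, with 6.44 in T23 and 7.99 in T1525 against 8.02 in normal 1 and 8.34 in normal 2. That probe was also lower in T23 (adjusted p = 0.0202), but T1525 lay below both normal arrays on it and was not called (adjusted p = 0.606). Tjp1, which is also found at the junctions of cells other than epithelia, was higher in both lines: 9.11 in T23 and 9.26 in T1525 against 7.71 in normal 1 and 8.00 in normal 2. The class difference was 2.52-fold (adjusted p = 0.049), and the lines did not overlap the normal arrays. After cyclic loess normalization the Tjp1 call was lost in the class (adjusted p = 0.0919), in T23 (0.0921) and in T1525 (0.0743).

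Of 6 polarity genes, 1 was lower in T23 (14.9% of all genes) and 0 in T1525 (14.8%), and 0 were higher in T23 (15.6%) and 3 in T1525 (16.5%). Llgl2, the Lgl protein of epithelia, read 8.34 in T23 and 12.36 in T1525 against 12.13 in normal 1 and 11.95 in normal 2. After a 13.0-fold drop in T23 (adjusted p = 0.00618, limma) it was still above background there. Its relative Llgl1 read 11.99 in T23 and 12.43 in T1525 against 11.24 in normal 1 and 11.48 in normal 2, higher in T1525 by 2.10-fold (adjusted p = 0.0436). Crb3, the Crumbs protein of the apical membrane, read 6.06 in T23 and 8.16 in T1525 against 6.84 in normal 1 and 7.10 in normal 2. It was higher in T1525 by 2.28-fold (adjusted p = 0.0363), and T23, at background, was not called (adjusted p = 0.0637).

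Pard6a, an adaptor of the Par complex, read 8.37 in T23 and 9.17 in T1525 against 7.93 in normal 1 and 8.06 in normal 2, higher in T1525 by 2.25-fold (adjusted p = 0.0317, limma). Pard3, the scaffold of that complex, and Scrib, which marks the basolateral side, were not called in either line and read between 6.68 and 7.67 on all arrays. The rises of Llgl1, Crb3 and Pard6a in T1525 each lost the call after cyclic loess normalization (adjusted p = 0.0747, 0.079 and 0.0803).

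Among the 31 genes Rab25 had the widest gap between the lines. This small GTPase of apical recycling endosomes read 6.61 in T23 and 13.66 in T1525 against 13.27 in normal 1 and 13.16 in normal 2. It was at least 91.7-fold lower in T23 than in normal prostate (adjusted p = 0.0048, limma), and 0.45 above normal in T1525 (95% interval -0.18 to 1.08, adjusted p = 0.203). T23 was at background and T1525 above both normal arrays, so the lines read at least 125-fold apart. Ap1m2, the epithelial subunit of the adaptor that sorts cargo to the basolateral membrane, read 6.08 in T23 and 11.13 in T1525 against 10.96 in normal 1 and 10.29 in normal 2. It was at least 15.2-fold lower in T23 (adjusted p = 0.00798), and all 3 of its probes were at background in T23 and between 9.48 and 11.13 on the other arrays.

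Matriptase and both inhibitors were lower together in T23. St14 read 6.04 in T23 and 10.62 in T1525 against 10.54 in normal 1 and 10.07 in normal 2, at least 12.2-fold lower in T23 (adjusted p = 0.00675, limma). Spint1 read 6.10, 9.74, 9.58 and 9.37 in the same order, at least 6.87-fold lower (adjusted p = 0.0068). Spint2 read 6.38, 9.50, 9.81 and 9.16, at least 6.90-fold lower (adjusted p = 0.0135), while a second Spint2 probe for another transcript was at background on all arrays. On the probes with the highest mean, the T1525 difference from normal lay between 0.02 and 0.31 for the 3 genes and its interval spanned 0. A second St14 probe was also lower in T23 (adjusted p = 0.00861) and gave a T1525 difference of 0.92 (adjusted p = 0.0923).

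The 11 genes lower in T23 and not called in T1525 (Ap1m2, Cldn7, F11r, Llgl2, Marveld3, Ocln, Rab25, Spint1, Spint2, St14 and Tjp3) had T1525 differences of 0.02 to 0.74. The bounds of their 95% intervals ran from -0.97 to 1.65. In T1525, 10 of the 11 read above both normal arrays and 0 below both. With each normal array taken alone, a 2-fold lower value in T23 was met by 19 of the 31 genes against normal 1 (17.2% of all genes) and by 18 against normal 2 (16.8%). In T1525 it was met by 8 against either array (16.9% and 17.2%).

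Partner genes of the same pathways were counted from lists made with earlier results of these data known. The shares of all genes to read them against are 14.9% lower and 15.6% higher in T23, and 14.8% lower and 16.5% higher in T1525. Of 19 apical junction partners above background, 3 (15.8%) were lower and 5 (26.3%) higher in T23, and 2 (10.5%) were lower and 2 (10.5%) higher in T1525. Cdh1, the E-cadherin of adherens junctions, read 6.37 in T23 and 10.96 in T1525 against 10.67 in normal 1 and 10.74 in normal 2 (adjusted p = 0.00546 for T23 and 0.421 for T1525, limma). Jup, the plakoglobin that links cadherins to keratin filaments, read 8.76, 11.27, 11.08 and 11.22 in the same order (adjusted p = 0.00985 and 0.707). Both fell in T23, and T1525 read above both normal arrays. The adhesion receptor Nectin2 was lower in each line, with 8.00 in T23 and 8.94 in T1525 against 10.14 in normal 1 and 10.56 in normal 2. The angiomotin relative Amotl2 was higher in T23 alone by the calls (9.70, against 6.90 and 7.07 in normal 1 and normal 2), with T1525 at 7.55, and the tight junction-associated factor Ybx3 was higher in both lines (11.33 and 11.53, against 10.10 and 10.35). After cyclic loess normalization Ybx3 lost both calls (adjusted p = 0.0727 in T23 and 0.0566 in T1525).

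Of 13 polarity partners, 5 (38.5%) were lower and 3 (23.1%) higher in T23, and 0 were lower and 3 (23.1%) higher in T1525. At least 2-fold lower in T23 than in T1525 were 7 of them, against 10.3% of all genes, and 0 were at least 2-fold higher, against 9.92%. Prkcz, an atypical protein kinase C of the Par complex, read 6.10 in T23 and 9.51 in T1525 against 9.38 in normal 1 and 8.94 in normal 2 (adjusted p = 0.00982 for T23, limma). Patj, a scaffold of the Crumbs complex, read 6.75, 8.75, 8.11 and 7.78 in the same order (adjusted p = 0.0408 for T23). Both followed the pattern of T23 alone low. The planar polarity genes Vangl1 and Vangl2 were higher in both lines, Vangl2 with 9.03 in T23 and 10.81 in T1525 against 7.51 in normal 1 and 7.78 in normal 2. After cyclic loess normalization Vangl2 kept its call in T1525, while Vangl2 in T23 (adjusted p = 0.0684) and Vangl1 in T23 (0.0683) and T1525 (0.102) lost theirs. Dlg5, a scaffold of the Dlg family, was higher in T23 (12.97, against 11.43 and 11.56 in normal 1 and normal 2, adjusted p = 0.0213), with T1525 at 12.07.

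Of 13 sorting partners, 3 (23.1%) were lower and 1 (7.69%) higher in T23, and 1 (7.69%) was lower and 3 (23.1%) higher in T1525. Ap1m1, the widely expressed counterpart of Ap1m2, read 9.0 in T23 and 7.85 in T1525 against 8.18 in normal 1 and 8.36 in normal 2, and was called in neither line (adjusted p = 0.0883 and 0.237, limma). The large adaptor subunit Ap1b1 was lower in both lines (10.77 in T23 and 10.46 in T1525, against 11.75 and 11.69), and the small subunit Ap1s1 was higher in T23 (11.16, against 10.03 and 9.85). Myo5b, the motor that moves Rab11 and Rab25 vesicles, read 6.14 in T23 and 9.12 in T1525 against 7.91 in normal 1 and 7.36 in normal 2, lower in T23 (adjusted p = 0.0406) and higher in T1525 (adjusted p = 0.0402). Rab11a, a close relative of Rab25, was higher in T1525 (10.10, against 8.63 and 8.85, adjusted p = 0.0265) and read 9.14 in T23. After cyclic loess normalization the rises of Myo5b and Rab11a in T1525 lost their calls (adjusted p = 0.0736 and 0.061).

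In the matriptase network, 6 of 12 genes (50.0%) were lower and 3 (25.0%) higher in T23, and 4 (33.3%) were lower and 2 (16.7%) higher in T1525. The androgen-regulated protease gene Tmprss2 read 6.34 in T23 and 8.37 in T1525 against 12.98 in normal 1 and 12.91 in normal 2, at least 76.1-fold lower in T23 (adjusted p = 0.0048, limma) and 23.9-fold lower in T1525 (adjusted p = 0.00493). Prss8, the prostasin that acts with matriptase, read 5.63, 7.98, 11.75 and 10.93 in the same order, at least 25.0-fold lower in T23 (adjusted p = 0.00709) and 10.2-fold lower in T1525 (adjusted p = 0.0142). Both proteases were thus low in T1525 too, where St14 was not called. Hgfac, an activator of hepatocyte growth factor, was at background in both lines and at 8.19 and 8.20 in normal 1 and normal 2. Hgf itself, the growth factor that matriptase can activate, read 8.90 in T23 and was at background on the other arrays (6.14 in T1525, 6.22 in normal 1 and 6.46 in normal 2), at least 4.60-fold higher in T23 (adjusted p = 0.00981). The receptor gene Epha2 was higher in both lines (9.06 and 8.30, against 6.83 and 6.97), and the protease gene Tmprss4 in T1525 (9.40, against 6.97 and 7.69, adjusted p = 0.0291), with 6.55 in T23. After cyclic loess normalization Epha2 and Tmprss4 lost their calls in T1525 (adjusted p = 0.0585 and 0.0803).

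Among 16 transcription factors known to act on junction genes, 3 (18.8%) were lower and 3 (18.8%) higher in T23, and 4 (25.0%) were lower and 4 (25.0%) higher in T1525. Grhl2, a grainyhead factor that activates epithelial junction genes, read 6.00 in T23 and 10.66 in T1525 against 10.63 in normal 1 and 10.54 in normal 2, at least 14.8-fold lower in T23 (adjusted p = 0.00546, limma). Grhl1 read 6.50, 10.33, 11.64 and 10.69 in the same order, at least 22.2-fold lower in T23 (adjusted p = 0.0107). T1525 was called for neither (adjusted p = 0.821 and 0.24). The epithelial ETS factor Elf3 read 6.41 in T23 and 11.13 in T1525 against 8.05 in normal 1 and 9.22 in normal 2, higher in T1525 (adjusted p = 0.0419) and short of the threshold in T23 (adjusted p = 0.0531), and its T1525 call was lost after cyclic loess normalization (adjusted p = 0.0994). Elf5, an ETS factor of secretory epithelium, was low in both lines (5.62 in T23 and 6.94 in T1525, against 12.45 in normal 1 and 12.08 in normal 2).

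The same list holds 6 factors known as repressors of epithelial genes, which were grouped after their values were seen. In T23, Twist1, Twist2 and Snai2 were higher than in normal prostate, 3 of the 6 (15.6% of all genes), and 0 were lower (14.9%). In T1525, Twist2, Zeb1 and Zeb2 were lower, 3 of the 6 (14.8% of all genes), and 0 were higher (16.5%). Twist2 read 11.50 in T23 and 5.85 in T1525 against 9.02 in normal 1 and 9.05 in normal 2, 5.53-fold higher in T23 (adjusted p = 0.00905, limma) and at least 5.07-fold lower in T1525 (adjusted p = 0.00601). Zeb2 read 9.20 in T23 and 6.41 in T1525 against 9.21 in normal 1 and 11.09 in normal 2, lower in T1525 by at least 10.97-fold (adjusted p = 0.0431), a call lost after cyclic loess normalization (adjusted p = 0.0705). T23 read below both normal arrays for Zeb2. Zeb1 read 10.73, 5.88, 10.24 and 10.61 in the same order of arrays, so T1525 was at background for Twist2, Zeb1 and Zeb2, while T23 was above it for each. Twist1 (11.37, 7.57, 7.77 and 8.02) and Snai2 (10.11, 7.51, 8.23 and 8.91) stayed above background in T1525 and were not called there. The Snai2 rise in T23 (adjusted p = 0.0494) lost its call after cyclic loess normalization (adjusted p = 0.126). Snai1 read 6.27 to 7.08 and was called in neither line. Fibroblasts can also express these factors. Their markers had 6 of 7 above background in T23, 2 of 7 in T1525 and 7 of 7 in each normal array, and their part in these values was not tested.

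**Figure D5:**
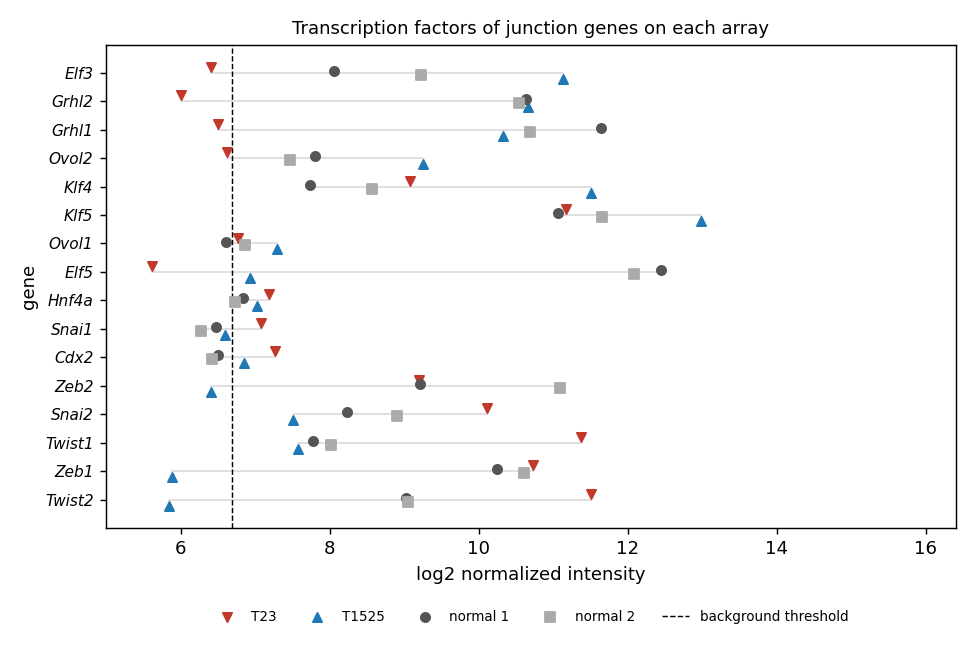
Log2 normalized intensity (x axis) of 16 transcription factors known to act on junction genes (rows), with 1 point per array and the background threshold as a dashed line. Points are offset vertically. Grhl2 and Grhl1 are at background in T23 and near the normal arrays in T1525, and Twist2, Zeb1 and Zeb2 are at background in T1525 and above it in T23.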

How the data were processed

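RNA of 4 samples was hybridised to Illumina bead arrays. The values are the authors' deposited normalized intensities on a linear scale, made with BeadStudio per the submitters' processing notes, without a version. The method of normalization is not given in the sources used here. Sorted values of the 4 columns differed by a median of 0.183%. A second table has 8 columns of per-sample values named only by slide position and was not used, so slides were not a block. The log2 of the intensity was taken. The background threshold was the mode of the log2 values (6.12) plus the one-sided 0.01 normal tail for the SD below it (0.247). It stood at 6.70, or 104 in linear units.

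The 15748 probes that passed it on 1 array or more entered limma 3.58.1 (R 4.3.3). Some genes, such as Hgf in T23, passed only through the group where they read high, which can favour their calls. Tests were two-sided, and p-values were adjusted by Benjamini-Hochberg over all these probes, with 0.05 as the limit. The class fit had 2 residual and 2.07 prior degrees of freedom, and the fit of 3 groups for each line had 1 and 2.96. The script was tested on simulated data. A gene was represented by its probe with the highest mean. Background values were raised to the threshold for a fold, given as "at least", and the p beside it belongs to the fitted difference. The number of arrays limits the precision.

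The platform's annotation gave 1 symbol for 20984 probes, several for 1 and none for 3628, and RefSeq gave promoters and gene order. Members were named in full. Partners were named from 5 lists (apical junction, polarity, sorting, matriptase network, transcription factors), at most the 4 of each with the largest class difference and the 2 with the largest difference between lines. Zeb1, Twist1, Snai2 and Snai1 were named beyond that rule, to show the repressors as a group, after their values were seen. Marker lists covered epithelium, endothelium, smooth muscle, fibroblasts, leukocytes, nerve and glia, mesothelium and seminal vesicle. The members and lists were chosen with earlier results of these data known. Alternatives were another normalization, other filters and probe rules, background values raised to the threshold, an intensity trend, and leaving out each array. The values against each normal array alone were added after seeing the data. Plots used matplotlib 3.10.9 (Python 3.11.15).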

Additional observations from a re-analysis of the deposited data

Results flagged for a closer look

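For 11 of the 31 junction and polarity genes (4.1% of all genes) T23 lay below and T1525 above both normal arrays, with the lines at least 2-fold apart once background values were raised to the threshold. The opposite order held for 0 of them and 4.64% of all genes. Each line has 1 array, and the difference was not tested. The log2 difference of T23 minus T1525 was -6.97 for Rab25, -4.44 for Ap1m2, -4.04 for Tjp3, -4.02 for Llgl2, -3.92 for St14, -3.89 for Cldn7, -3.79 for Marveld3, -3.35 for F11r, -3.05 for Spint1, -1.96 for Ocln and -1.46 for Crb3. Of these genes, Crb3 alone was called higher in T1525. The second probe of Tjp3 had T1525 below both normal arrays. Another Ap1m2 probe had T1525 (10.83) below normal 1 (10.92). For F11r, T1525 read 10.0405 and normal 2 10.038. After cyclic loess normalization the T1525 difference from normal was -0.18 for F11r and -0.050 for Spint1.

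Of 73 partner genes and factors, 13 (17.8%) had T23 below and T1525 above both normal arrays, against 4.1% of all genes. The opposite order held for 7 (9.59%), against 4.64% of all genes. By list, the first and second order held for 4 and 2 apical junction partners and 4 and 0 polarity partners. They held for 1 and 1 sorting partners, 1 and 0 matriptase network genes, and 3 and 4 transcription factors. Among those named in the text, the first order was seen for Elf3 (-4.43), Cdh1 (-4.26), Grhl2 (-3.96), Prkcz (-2.81), Tmprss4 (-2.70), Jup (-2.51), Myo5b (-2.42) and Patj (-2.00). The second was seen for Twist2 (4.81), Zeb1 (4.04), Twist1 (3.80), Snai2 (2.59) and Ap1m1 (1.15). These differences were not tested either.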

How the results depend on the processing

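No paired analysis was made, because the labels give no pairing of the lines with the normal arrays, and each line has 1 array. Leaving out a line gave the comparison of the other line alone with normal prostate, which is no further check. With all arrays the class comparison called 7 members. Without normal 1 or normal 2 it called 0 probes of the whole array (2545 and 2341 at an unadjusted p under 0.05), and with a single normal array the line fits have no residual degrees of freedom and were not run. Setting values at background to the threshold cut the members called from 20 to 4 in T23 and from 12 to 2 in T1525, and over all probes from 4601 to 1311 and from 4701 to 1723. The median of T23 minus T1525 was -0.80; it was -0.18 with no filter, -2.10 with background passed on at least 2 arrays, -1.53 and -0.53 with background tails of 0.001 and 0.05, and -0.45 with values at the threshold. Cyclic loess moved the median of all probes from 0.17 to -0.04 in T23 and from 0.16 to -0.06 in T1525, and the share of calls that were higher from 56.1% to 42.7% and from 57.6% to 43.8% (class 52.4% to 36.3%). It turned the sign of 3 uncalled T1525 differences, F11r (-0.18), Spint2 (-0.30) and Spint1 (-0.050). Values at the threshold gave shares of 77.6%, 77.8% and 59.3%. Of 95 single-gene results, cyclic loess kept the direction and call of 74, median scaling of 95, mean of probes of 92 and values at the threshold of 37; the calls lost with the mean of probes were Nectin2 in T1525, and Vangl2 and Patj in T23. Patj also lost its call with an intensity trend, and the class call of Tjp1 with that trend (adjusted p = 0.0672) and with the 0.001 tail (0.0513). Snai2 in T23 lost its call with no filter (0.0502) and with the 0.05 tail (0.0519). The cause of these changes was not tested.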
